A study of Homo sapiens with 6 samples.

Results

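Retinoid signaling was followed through 9 genes in human IMR90 fibroblasts. These genes encode the cellular retinoic acid binding proteins CRABP1 and CRABP2, the retinaldehyde dehydrogenases ALDH1A1 and ALDH1A3, the retinol uptake receptor STRA6, and the nuclear receptors RARA, RARB, RARG and RXRA. They were taken by symbol from a deposited table of 57232 genes, and all 9 were found. The genes were chosen by their role and by their FPKM values in the ARID1B and vector libraries, which were already known. Their differences between the groups are therefore given as a description, with a standard error and without a test. The cells had been infected with ARID1B cDNA (3 libraries) or with an empty vector (3 libraries). IMR90 is a line of fetal lung fibroblasts, and both groups were at passage 13, with puromycin selection up to day 4 and collection at day 6. ARID1B is a subunit of the BAF form of the SWI/SNF chromatin remodeling complex. The paper describes the libraries of each group as biological replicates and uses ectopic ARID1B to ask what it does to senescence in these cells.

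Retinol enters cells with the help of STRA6, is oxidized to retinaldehyde by alcohol and retinol dehydrogenases, and is then oxidized irreversibly to retinoic acid by enzymes of the ALDH1A family. CRABP proteins carry retinoic acid in the cytoplasm, and CRABP2 can hand it over to retinoic acid receptors (RARs) in the nucleus. RARs bind DNA as pairs with a retinoid X receptor (RXR) at retinoic acid response elements, and CYP26 enzymes break retinoic acid down. In the developing lung, retinoic acid made in the mesenchyme takes part in the outgrowth of the lung bud and later in the formation of alveoli.

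Levels are in FPKM, that is fragments per kilobase of a gene relative to the library total. ARID1B itself (ENSG00000049618) stood at 32.5, 21.0 and 28.3 FPKM in ARID1B replicates 1, 2 and 3, against 2.29, 1.31 and 2.05 FPKM in vector replicates 1, 2 and 3. RNA of the cDNA and of the cells' own gene cannot be told apart here. All 10 listed markers of lung fibroblasts were measured, with summed levels between 1918 and 2673 FPKM with ARID1B and between 1949 and 2636 FPKM with the vector. Of the markers of lung epithelium, NKX2-1, SFTPC and KRT5 were at 0 in all libraries. CDH1 reached at most 0.00297 FPKM, and EPCAM lay between 0.158 and 0.255 FPKM. The markers of endothelium and blood summed to less than 1 FPKM in each library. KRT19, a simple keratin, reached 3.84 to 5.82 FPKM with ARID1B and 4.35 to 14.3 FPKM with the vector. Vector replicate 2 stood apart from the rest, scoring -48.5 on the first principal component (63.8% of variance), on which the other 5 libraries scored between -3.63 and 20.0. Replicate 3 lay between replicates 1 and 2 for 69.2% of the genes tested with ARID1B and 85.0% with the vector. Standard errors treat replicate 3 as independent, and values without both libraries numbered 3 are given below. Across 10195 genes, which are not independent of each other, the log2 change between ARID1B and vector fell with the GC content of the transcript (Spearman's rho -0.55, or -0.27 without vector replicate 2). Whether a difference came from fewer cells with a transcript or from less RNA in each cell cannot be told from bulk RNA.

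The sequences below show the 250 bases before the RefSeq start (GRCh38.p14) for 3 of the genes. CRABP2 and RARG are shown because their ARID1B and vector levels did not overlap. RARB is shown because one of its 4 start windows was the only one among the 19 windows of the 9 genes with a direct repeat of RAR half-sites. The half-sites searched were AGGTCA (the consensus of many nuclear receptors), its relative AGTTCA (the other one seen here), as well as GGTTCA (seen here too) and finally GGGTCA. A repeat was any pair of them in the same direction with 5 bases between, on either strand, and its half-sites are in capitals. Repeats with other spacings were not searched.
CRABP2, chr1:156705785-156706034, minus strand: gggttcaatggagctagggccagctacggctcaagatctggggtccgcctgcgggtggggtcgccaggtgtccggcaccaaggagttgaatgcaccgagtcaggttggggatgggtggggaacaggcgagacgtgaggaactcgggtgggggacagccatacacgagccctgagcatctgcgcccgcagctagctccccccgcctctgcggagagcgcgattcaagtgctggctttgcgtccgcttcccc
RARG, chr12:53232210-53232459, minus strand: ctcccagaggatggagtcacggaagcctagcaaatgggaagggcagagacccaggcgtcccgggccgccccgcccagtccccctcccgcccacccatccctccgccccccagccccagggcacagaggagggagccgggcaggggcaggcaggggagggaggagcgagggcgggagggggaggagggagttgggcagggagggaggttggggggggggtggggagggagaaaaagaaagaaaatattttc
RARB, chr3:25428013-25428262, plus strand: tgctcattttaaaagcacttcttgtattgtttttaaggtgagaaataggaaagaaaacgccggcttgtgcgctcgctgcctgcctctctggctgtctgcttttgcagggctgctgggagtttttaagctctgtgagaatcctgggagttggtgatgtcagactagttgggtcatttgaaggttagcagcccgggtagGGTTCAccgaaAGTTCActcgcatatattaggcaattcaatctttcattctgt

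The repeat in the RARB window runs from base 53 to base 37 before the start. RARB is a textbook target of retinoic acid through such an element. Of the 35116 RefSeq windows of 300 bases (250 before and 50 after a start), 31 held this repeat, or 0.0883%. A half-site, alone or within a repeat, was far more frequent. At least 1 stood in 38.6% of all windows and in 8 of the 19 windows of the 9 genes. The CRABP2 window held 1, and the RARG window had no match. A match says only that these letters are present.

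The level of the 9 genes ran from several FPKM down to nothing. By FPKM, CRABP2 had the highest level in all 6 libraries, with a mean of 9.47 FPKM over them. RXRA (4.67 FPKM) lay above RARA (3.47 FPKM) in all 6. RARA and RARG (3.17 FPKM) changed places between libraries, with RARA the higher in 3 of 3 ARID1B libraries and in 1 of 3 vector libraries. ALDH1A3 followed at 2.35 FPKM and lay below RARG in 5 of 6 libraries. ALDH1A1 (0.0484 FPKM) and RARB (0.0481 FPKM) had like means, though ALDH1A1 was the higher in 1 of 6 libraries alone (ARID1B replicate 2), STRA6 was near 0 and CRABP1 was at 0. The 5 genes that reached 1 FPKM on average (CRABP2, ALDH1A3, RARA, RARG and RXRA) entered the fit across 10416 genes, and the other 4 did not pass this filter. Ranks and shares between genes rest on the gene lengths behind the FPKM. The recovered lengths were 1935 bases for CRABP2, 13077 for RXRA, 13215 for RARG and 7146 for RARA. Their longest transcripts in GENCODE v29 have 1033, 5770, 2959 and 3041 bases. Whether CRABP2 stays the highest with other lengths was not tested. In reads, RARG lay above RARA in each library, for example 2162 against 1718 in ARID1B replicate 1.

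CRABP2, the carrier of retinoic acid to its receptors (ENSG00000143320), was lower with ARID1B. It stood at 5.54, 5.66 and 5.27 FPKM in ARID1B replicates 1, 2 and 3, against 16.8, 7.45 and 16.1 FPKM in vector replicates 1, 2 and 3. The ARID1B libraries lay close together, whereas vector replicate 2 had less than the other vector libraries, and the groups did not overlap. The mean was 5.49 ± 0.198 FPKM (SD, n = 3) with ARID1B, or 40.8% of the 13.4 ± 5.20 FPKM (SD, n = 3) with the vector. On the scale of log2(FPKM + 1), which understates changes at low levels, the change was -1.08 (standard error 0.292). It was -1.43 (standard error 0.0723) without vector replicate 2 and -0.89 (standard error 0.399) without both libraries numbered 3. Over all genes tested, 0.163% had a change of -1 or below. CRABP2 rested on 750 to 2618 reads per library, so counting error was small beside the spread of the vector libraries. Its transcript has a GC content of 55.8%, against a median of 47.8% over the genes tested. A fit corrected for GC content and transcript length gave -0.86 (standard error 0.424).

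CRABP1, the other cellular retinoic acid binding protein (ENSG00000166426), was listed at 0 in all 6 libraries. An antisense gene (ENSG00000279694) covers 47.2% of the exonic bases of CRABP1 in GENCODE v29, and its part in this value was not tested. A count of 0 allows up to 3 reads in a library. CRABP2 was thus the CRABP gene with measured RNA in these fibroblasts.

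**Figure D1:**
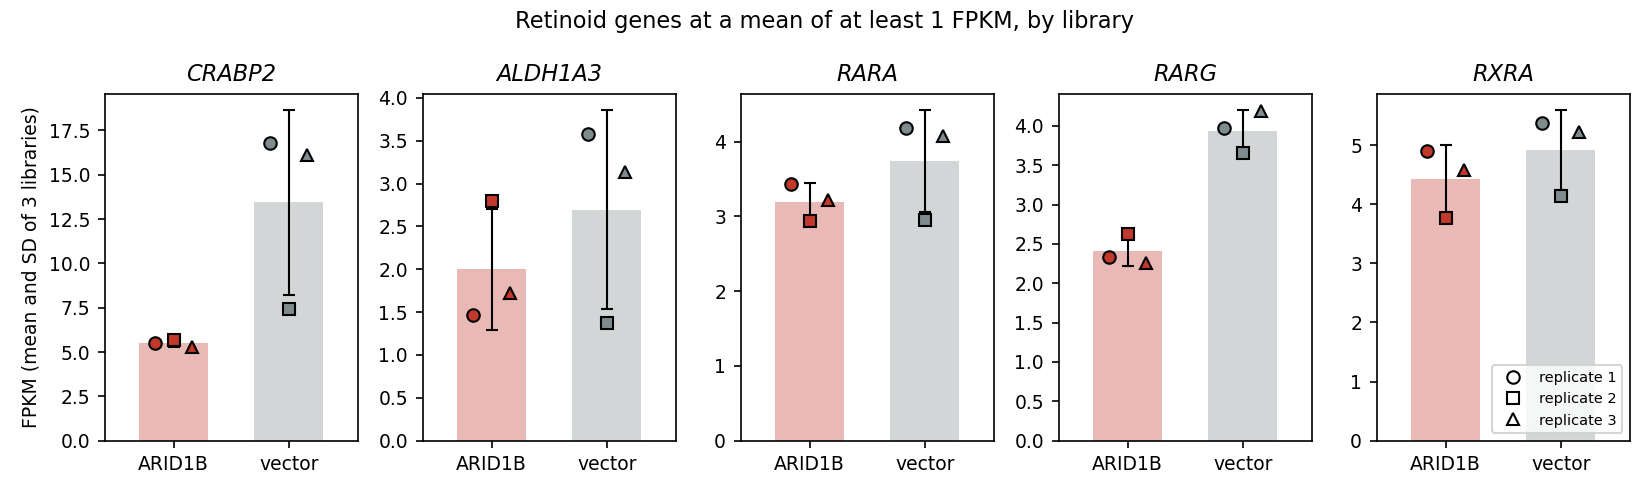
FPKM of the 5 retinoid genes that entered the fit, in each library of IMR90 cells with ARID1B (red) or the empty vector (gray). Bars show means of 3 libraries with whiskers of 1 SD, and replicates differ in marker shape; the ARID1B points of CRABP2 and RARG all lie below the vector points, and those of ALDH1A3, RARA and RXRA overlap.

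The retinoic acid receptors were not alike. RARG (ENSG00000172819) stood at 2.34, 2.63 and 2.26 FPKM in ARID1B replicates 1, 2 and 3, against 3.97, 3.66 and 4.19 FPKM in vector replicates 1, 2 and 3. Both groups were tight and did not overlap, and vector replicate 2 lay near the other vector libraries. The mean of 2.41 ± 0.194 FPKM (SD, n = 3) with ARID1B was 61.2% of the 3.94 ± 0.263 FPKM (SD, n = 3) with the vector. The log2 change was -0.54 (standard error 0.0998). It was -0.58 (standard error 0.0789) without vector replicate 2 and -0.47 (standard error 0.234) without both libraries numbered 3. With a GC content of 60.0%, RARG had a change of -0.34 (standard error 0.146) in the corrected fit.

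RARA (ENSG00000131759), the most broadly expressed RAR, had 3.43, 2.94 and 3.22 FPKM in ARID1B replicates 1, 2 and 3, against 4.19, 2.96 and 4.08 FPKM in vector replicates 1, 2 and 3. Vector replicate 2 was as low as the lowest ARID1B library, so the groups overlapped. The antisense gene RARA-AS1, at 0.413 to 0.672 FPKM over the 6 libraries, covers 11.8% of the exonic bases of RARA in GENCODE v29, and its part in the values was not tested. The log2 change was -0.17 (standard error 0.138), and it turned to 0.059 in the fit corrected for GC content. RXRA (ENSG00000186350), a partner of RARs and of many other nuclear receptors, overlapped between the groups as well. It stood at 4.90, 3.77 and 4.58 FPKM in ARID1B replicates 1, 2 and 3, against 5.38, 4.14 and 5.23 FPKM in vector replicates 1, 2 and 3. Its log2 change was -0.13 (standard error 0.139), and -0.012 in the corrected fit.

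Since RARA and RARG come from the same library, their ratio is free of the scaling between libraries. Its size rests on the gene lengths behind the FPKM. RARG over RARA was 0.681, 0.894 and 0.704 in ARID1B replicates 1, 2 and 3, against 0.949, 1.24 and 1.03 in vector replicates 1, 2 and 3. Of the summed level of RARA, RARB and RARG, RARG held 40.3% to 46.3% in ARID1B libraries and 48.3% to 55.2% in vector libraries. The highest share with ARID1B lay below the lowest share with the vector. RARG, a part of this share, also separated the groups alone, and how often other gene pairs do so was not tested. The sum of the RARs averaged 5.67 ± 0.138 FPKM in ARID1B libraries, against 7.72 ± 0.941 FPKM in vector libraries (SD, n = 3 each). RARB made up at most 1.81% of this sum in any library.

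**Figure D2:**
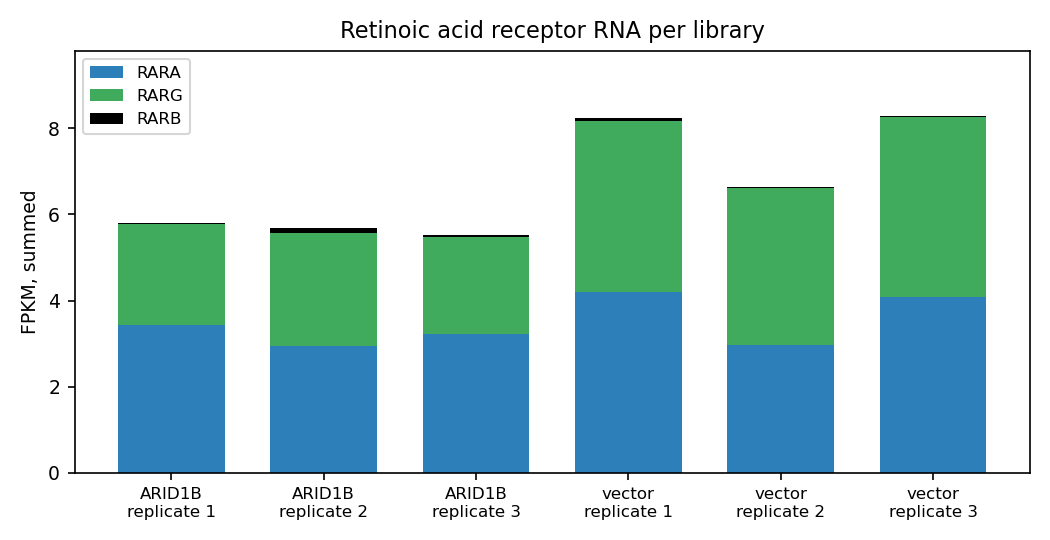
Summed FPKM of RARA (blue), RARG (green) and RARB (black) in each of 6 libraries, ARID1B to the left of vector. The sum lies between 5.53 and 5.80 FPKM in ARID1B libraries and between 6.63 and 8.29 FPKM in vector libraries, and RARG has the smaller share with ARID1B.

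RARB (ENSG00000077092), which is itself induced by retinoic acid in many cells, was barely present. It had 11, 38 and 22 reads in ARID1B replicates 1, 2 and 3, against 28, 5 and 8 reads in vector replicates 1, 2 and 3. In FPKM these were 0.0315, 0.103 and 0.0480 with ARID1B, against 0.0697, 0.0111 and 0.0253 with the vector, and the groups overlapped. RARB shares 28 exonic bases with TOP2B on the opposite strand (GENCODE v29), and whether reads were counted by strand is not given in the sources used here. TOP2B had 19.4, 25.2 and 22.0 FPKM in ARID1B replicates 1, 2 and 3, against 26.1, 14.3 and 23.6 FPKM in vector replicates 1, 2 and 3, which is the same order of libraries within each group as for RARB. The part of TOP2B reads in the RARB values was not tested.

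The retinaldehyde dehydrogenases differed more within the groups than between them. ALDH1A3 (ENSG00000184254), which supplied at least 93.4% of the summed level of ALDH1A1, ALDH1A2 and ALDH1A3 in each library, had 1.47, 2.80 and 1.73 FPKM in ARID1B replicates 1, 2 and 3. It had 3.57, 1.37 and 3.13 FPKM in vector replicates 1, 2 and 3. Its lowest value of all was that of vector replicate 2, and the groups overlapped. The log2 change was -0.27 (standard error 0.289). Leaving out vector replicate 2 gave -0.56, and leaving out vector replicate 1 gave -0.09. An antisense gene (ENSG00000259583) covers 27.5% of the exonic bases of ALDH1A3 in GENCODE v29, at 0.178 to 0.390 FPKM over the 6 libraries.

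ALDH1A1 (ENSG00000165092), the other dehydrogenase, was nearly silent, with 4, 48 and 8 reads in ARID1B replicates 1, 2 and 3, against 14, 1 and 5 reads in vector replicates 1, 2 and 3. Of the 60 reads with ARID1B, 48 came from replicate 2, so no direction can be drawn from the group sums of 60 and 20. STRA6 (ENSG00000137868), the receptor that takes up retinol from its plasma carrier RBP4, had 0, 4 and 3 reads with ARID1B and 4, 0 and 3 reads with the vector. These counts are at the limit of 3 reads that a count of 0 allows, and no difference was detectable at this depth.

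**Figure D3:**
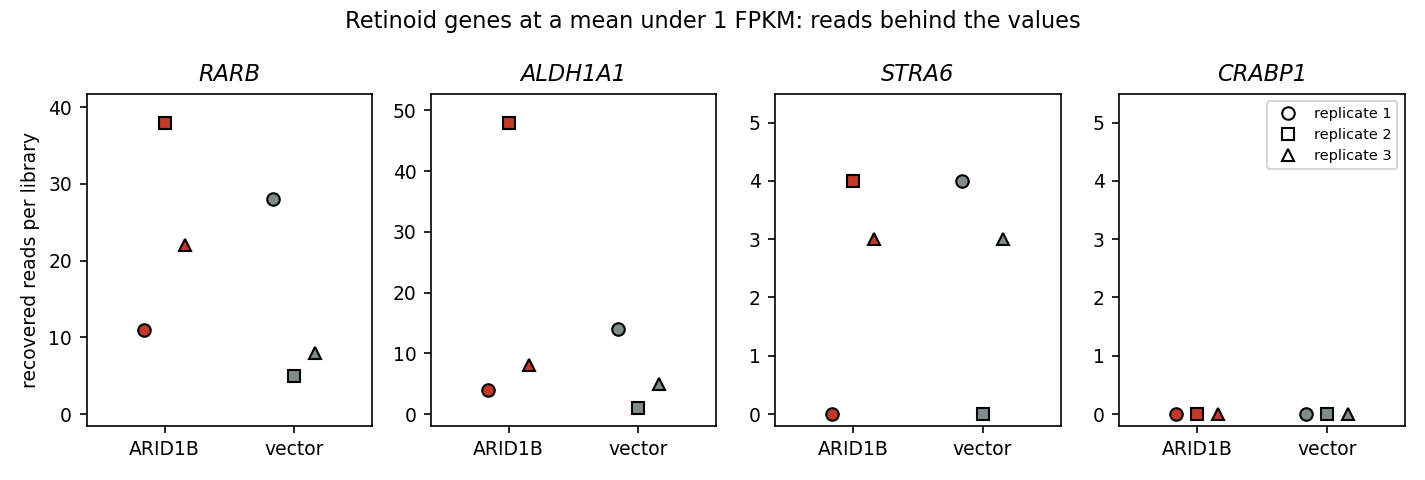
Reads recovered for the 4 retinoid genes at a mean under 1 FPKM, in each library with ARID1B (red) or the vector (gray), not scaled for library totals. Marker shapes give the replicate number; ARID1B replicate 2 and vector replicate 1 hold the most reads of RARB, ALDH1A1 and STRA6, and CRABP1 has 0 reads in each library.

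ALDH1A1, ALDH1A3, RARB and STRA6 had the same order of libraries, a pattern noticed in the values. Within the ARID1B group replicate 2 was the highest and replicate 1 the lowest, and within the vector group replicate 1 was the highest and replicate 2 the lowest. This order was held by 17.0% of the genes tested and by 6.69% of the genes with a mean above 0 and under 1 FPKM. It was also the order of 15 of the 36 tested genes among the other retinoid genes listed below. ARID1B RNA ran against this order in the ARID1B group (32.5, 21.0 and 28.3 FPKM in replicates 1, 2 and 3). In the vector group ARID1B RNA ran along it (2.29, 1.31 and 2.05 FPKM), and a link was not tested. Examples chosen for this order were RARRES2, which is induced by retinoids in skin cells, and ADH1B, an alcohol dehydrogenase. RARRES2 had 1.20, 6.04 and 2.58 FPKM in ARID1B replicates 1, 2 and 3, against 5.41, 1.20 and 4.82 FPKM in vector replicates 1, 2 and 3. The libraries of ADH1B lay far apart within each group. It had 0.0703, 1.45 and 0.278 FPKM with ARID1B, against 4.85, 0.00503 and 3.91 FPKM with the vector. ARID1B replicate 2 and vector replicate 1 also had the highest scores on the first principal component, at 19.2 and 20.0.

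Of the 9 genes, the 5 that entered the fit had a negative change, with a median of -0.27, against -0.02 over all genes tested, of which 5453 of 10416 were negative. In 2 of these 5, CRABP2 and RARG, each ARID1B library lay below each vector library, as did 11.1% of all genes tested (20.5% in either direction). Both also lay below the vector by at least 0.5 on the log2 scale, and 1.23% of all genes tested met both conditions. At an adjusted p under 0.05 from limma, 0 of the 5 were called, against 0.0288% of all genes tested. At an unadjusted p under 0.05 from limma, 0 were higher and 2 were lower, against 4.64% and 5.94% of all genes tested. Without vector replicate 2 the same fit called CRABP2 and RARG, both lower, and 3.11% of all genes tested (1.91% lower). Because the genes were chosen with this comparison known, these counts are a description, and no test is read from them. Leaving out any other single library called 0 of all genes tested.

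**Figure D4:**
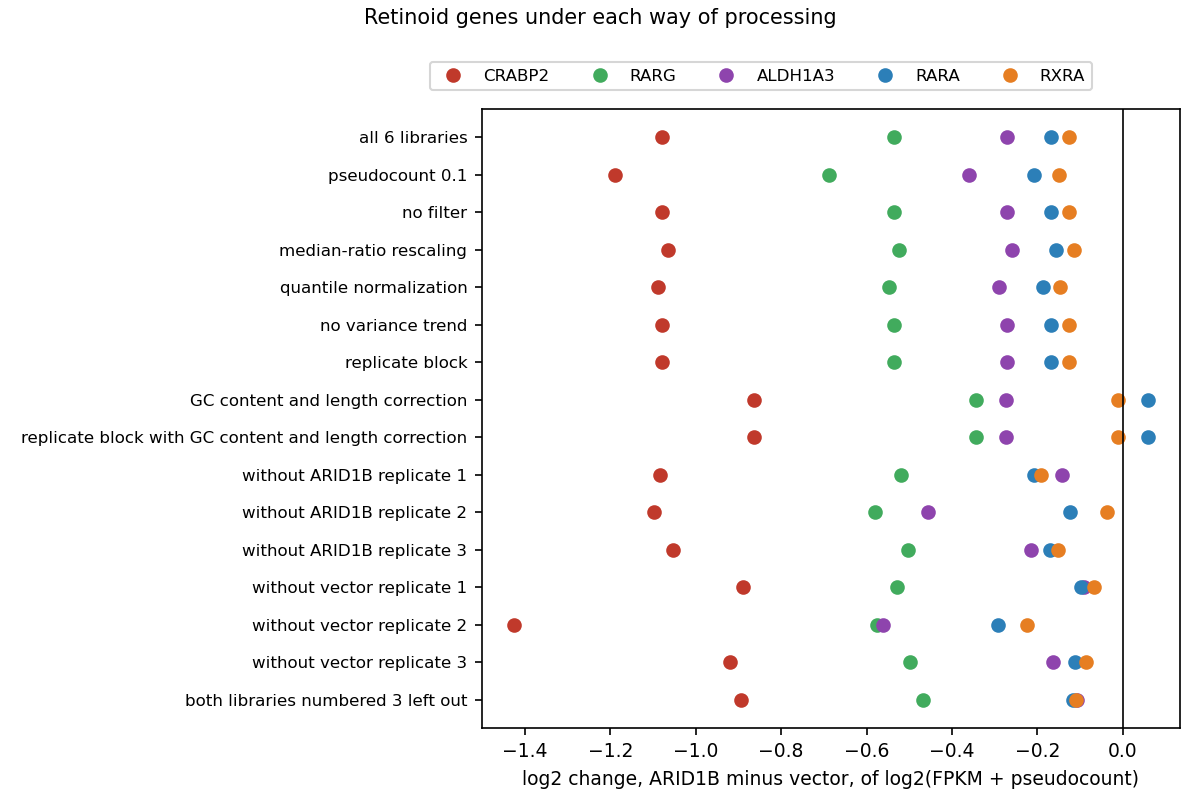
Log2 change (ARID1B minus vector) of 5 retinoid genes with all 6 libraries and under 15 other ways of processing, given on the left. CRABP2 (red) runs from -1.43 to -0.86 and RARG (green) from -0.69 to -0.34, while RARA (blue) crosses 0 in the fits corrected for GC content.

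CRABP2 and RARG were set against the rest of the table to find the genes most like them over the 6 libraries, by Pearson's correlation of log2(FPKM + 1). For CRABP2 these were ELFN2, DNM1, UAP1L1, SIX5 and OBSL1, with r from 0.9972 to 0.9994. For RARG they were PYCR1, LTBP3, CCDC102A, MAGEF1 and HTRA3, with r from 0.9945 to 0.9982. With 6 libraries such values are common, and 126 genes had an r above 0.95 with CRABP2 and 123 with RARG. The points share libraries and GC content, and no more is drawn from them.

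The other genes of the pathway were taken from a list of 66 genes for uptake and storage, synthesis, breakdown, carriers, receptor partners and retinoic acid induced genes, of which 36 entered the fit. At an adjusted p under 0.05 from limma, 0 rose and 0 fell, against 0.0288% called over all genes tested. At an unadjusted p under 0.05 from limma, 2 were higher and 4 were lower, against 4.64% and 5.94% of all genes tested. The median log2 change was -0.02, as over all genes tested, but without vector replicate 2 it was -0.19 for the list and -0.01 over all genes tested. In 4 genes each ARID1B library lay above, and in 4 below, each vector library, against 9.44% and 11.1% of all genes tested. Without vector replicate 2, limma called 1 gene higher (GPRC5A) and 2 lower (PPARD and TGM2), against 1.2% and 1.91% of all genes tested. The list was drawn up with earlier results of these data known, so these counts and the adjusted p-values below are a description.

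In uptake and storage, DGAT1, which can esterify retinol, had a log2 change of -0.12 (limma, adjusted p = 0.768), and it turned to 0.085 in the corrected fit. It was -0.023 without ARID1B replicate 2 and -0.039 without vector replicate 2. Among genes of synthesis, RDH10, the dehydrogenase that makes most embryonic retinaldehyde in mice, had a log2 change of 0.58 (limma, adjusted p = 0.561). It stood at 5.10, 11.1 and 6.68 FPKM with ARID1B, against 5.89, 3.04 and 5.09 FPKM with the vector, and the groups overlapped. The change was 0.35 without vector replicate 2 and 0.31 without ARID1B replicate 2. ADH5, which oxidizes formaldehyde and some retinol, was at -0.21, with -0.37 without vector replicate 2 and -0.10 without vector replicate 1. RDH11, a retinal reductase, was at 0.054, with -0.049 in the corrected fit. The breakdown enzymes CYP26A1, CYP26B1 and CYP26C1 were all under 1 FPKM and were not tested.

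FABP5 and PPARD form a second route, in which FABP5 can carry retinoic acid to PPARD. FABP5 had 10.4, 7.57 and 10.1 FPKM with ARID1B, against 8.68, 39.2 and 13.5 FPKM with the vector, with vector replicate 2 far above the rest. Its log2 change was -0.80, and -0.21 without that library. PPARD had 7.04, 7.03 and 6.86 FPKM with ARID1B, against 10.6, 8.51 and 10.4 FPKM with the vector. Its groups did not overlap, with a log2 change of -0.44 (limma, adjusted p = 0.320), and without vector replicate 2 it fell by 0.53 (limma, adjusted p = 0.0328). In the fit corrected for GC content and length PPARD was at -0.29 (limma, adjusted p = 0.597). CRABP2 stood at 0.533, 0.748 and 0.524 times FABP5 in ARID1B replicates 1, 2 and 3, against 1.94, 0.190 and 1.19 times in vector replicates 1, 2 and 3, and vector replicate 2 lay on the other side of the ARID1B libraries.

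Of the receptor partners and coregulators, 9 of the 12 tested had a positive and 3 a negative change, with a median of 0.12. This direction turned without vector replicate 2, where the median was -0.11. RXRB, the other RXR with measured RNA, had 6.85, 6.24 and 6.41 FPKM with ARID1B, against 7.98, 8.52 and 8.37 FPKM with the vector. Its groups did not overlap, at a log2 change of -0.31 (limma, adjusted p = 0.372) and of -0.14 in the corrected fit, while RXRG was listed at 0 in all libraries. HDAC3, a deacetylase of the corepressor complex, was at -0.15 (limma, adjusted p = 0.732), and at -0.023 without vector replicate 2. EP300, an acetyltransferase and coactivator, was at 0.23 (limma, adjusted p = 0.811), and at -0.17 without vector replicate 2.

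Genes known to be induced by retinoic acid in other cells went both ways, with 4 positive and 10 negative changes among the 14 tested (median -0.16, or -0.39 without vector replicate 2). GPRC5A, an orphan receptor first named for its induction by retinoic acid, had 11.6, 10.3 and 10.6 FPKM in ARID1B replicates 1, 2 and 3, against 4.86, 5.18 and 5.04 FPKM in vector replicates 1, 2 and 3. Both groups were tight and far apart, at a log2 change of 0.97 (limma, adjusted p = 0.0920, standard error 0.0986), which missed the threshold. Without vector replicate 2 GPRC5A rose by 0.99 on the log2 scale (limma, adjusted p = 0.0186). RAI14, another gene named for its induction by retinoic acid, had a log2 change of 0.49 (limma, adjusted p = 0.313) with groups that did not overlap. TGM2, a transglutaminase and known RAR target, overlapped between the groups, at 49.2, 51.1 and 46.9 FPKM with ARID1B, against 79.1, 39.8 and 73.2 FPKM with the vector. Its log2 change was -0.32 (limma, adjusted p = 0.709), and without vector replicate 2 it fell by 0.62 (limma, adjusted p = 0.0376). NR2F2, an orphan nuclear receptor of mesenchyme, was at -0.16 (limma, adjusted p = 0.689), and at -0.08 without ARID1B replicate 2.

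**Figure D5:**
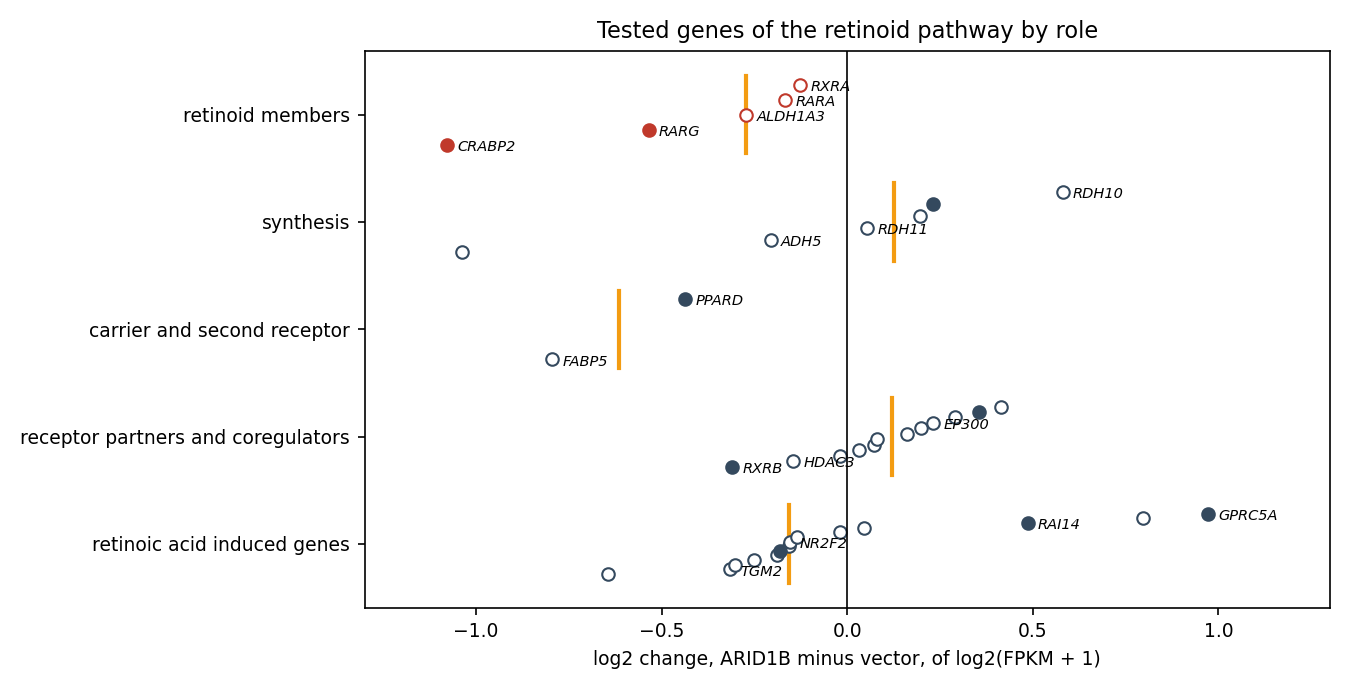
Log2 change (ARID1B minus vector, on log2(FPKM + 1)) of tested genes of the retinoid pathway by role (synthesis, carriers, receptor partners and induced genes), with the 5 retinoid genes of the main set in red at the top. Filled points mark genes whose groups do not overlap and orange lines give the median of each row; CRABP2 lies at -1.08 and GPRC5A at 0.97.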

How the data were processed

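RNA-seq of 3 ARID1B and 3 vector libraries of IMR90 cells was analysed. Libraries came from a kit that keeps strand. The authors deposited FPKM values, 1 per gene and library, for 57232 genes. The submitters' notes list hg19, DESeq2, HTSeq 0.5.3p9 and TopHat2 2.0.11 without giving the role of each, and the gene model is not given in the sources used here. Low FPKM values step in whole reads. In genes that GENCODE v29 lists with 1 transcript, these steps gave library totals of 63386813 to 91924514 reads. The smallest whole gene length at which all 6 values were whole within 0.002 reads gave the reads of a gene, which are too few where they share a divisor. The 10416 genes whose mean reached 1 FPKM were tested on log2(FPKM + 1) in limma 3.58.1 (R 4.3.3), using its variance trend, and Benjamini-Hochberg adjusted p-values under 0.05 counted as called. Scripts were tested on simulated data.

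The 9 genes, the lists and the rules were chosen with earlier results of these data known. Besides the 9 genes, the text names in each role the 3 tested genes with the highest mean, those past the threshold, those with groups that do not overlap and an absolute log2 change of at least 0.5, and the 5 genes most like each of the 2 genes that changed most. A gene that this rule gives is not reported here. ADH1B and RARRES2 were named after their values were seen. Alternatives were leaving out each library, or both libraries numbered 3, a block on replicate number, a fit corrected for GC content and transcript length by natural splines (5 degrees of freedom each, for the 97.9% of genes matched), quantile normalization, rescaling by median ratios, leaving out the variance trend, a pseudocount of 0.1, a filter of 5 FPKM and no filter. Start windows are from RefSeq, on another build (GRCh38.p14) than hg19. Tables and plots were made in Python 3.11.15 with matplotlib 3.10.9.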

Additional observations from a re-analysis of the deposited data

How the results depend on the processing

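The changes of CRABP2, RARG, ALDH1A3 and RXRA were negative under each alternative that tested them, and that of RARA under 13 of 15. With single libraries left out, the log2 change ran from -1.43 to -0.89 for CRABP2, from -0.58 to -0.50 for RARG, from -0.56 to -0.09 for ALDH1A3, from -0.29 to -0.10 for RARA and from -0.22 to -0.04 for RXRA. RARG moved beyond the spread between replicates, taken on log2(FPKM + 1), with a pseudocount of 0.1 (-0.69). A smaller pseudocount enlarges log2 changes at low levels, so this value is on another scale. RARG also moved beyond this spread with the correction for GC content and length (-0.34, with or without the replicate block). RARA did so with the correction as well (0.059, with or without the replicate block). With the correction, DGAT1 turned to 0.085 and RDH11 to -0.049, also with the block. With single libraries left out, RDH11 ran from -0.021 (without ARID1B replicate 2) to 0.12, and EP300 from -0.17 (without vector replicate 2) to 0.47. The causes of the shifts with the correction and with libraries left out were not tested. Of all genes tested, 3 were called. The count was 0 with no filter, with the replicate block, with the block and the correction together and without both libraries numbered 3, and 6 with the correction alone. With single libraries left out it ran from 0 to 324, the highest without vector replicate 2. The other retinoid pathway genes called were 0, and from 0 to 3 with single libraries left out. Same-numbered libraries did not deviate together (correlations of -0.46, -0.43 and -0.17 for replicates 1, 2 and 3). Between differently numbered libraries the correlations ran from -0.41 (ARID1B replicate 1, vector replicate 3) to 0.46 (ARID1B replicate 1, vector replicate 2). Deviations from means of 3 libraries cannot settle whether the samples were paired. The filter of at least 5 FPKM left CRABP2 alone of the 9 genes. Each group had 3 libraries, and errors treat replicate 3, which lay between the others for most genes, as independent.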
